A study of Rattus norvegicus with 6 samples.

Results

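The genes of DNA replication and of the G1/S transition were followed in stromal cells of rat bone marrow, a culture of adherent marrow cells with the capacity to become bone, cartilage or fat. The list holds 39 genes, chosen by name for their role in the cell cycle, with earlier results of these data known. All 39 had at least 1 probe of that name among the 45598 probes of the array. Of these, 37 were bright enough to test, out of 19601 genes tested in all. The probes of Pola1, the catalytic subunit of DNA polymerase alpha, and Dnmt1, the maintenance DNA methyltransferase, were not well above background on any of the 6 arrays, and these genes are only named here.

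Total RNA was measured on 6 one-colour arrays. The cells came from the marrow of rat tibias and grew for 7 days on tantalum-modified titanium (Ta, n = 3 arrays) or on simple titanium (Ti, n = 3 arrays). The labels give no strain, sex or age of the rats, no other treatment and no passage number, and they describe 3 independent experiments per surface without saying whether these used different animals. Levels are given as log2 of the scanner's processed signal after scaling, so a difference of 1 is a doubling, and all differences are Ta minus Ti with the standard error (SE) of limma. Levels of different probes cannot be set against each other, since each probe has its own brightness per molecule.

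Before a cell copies its genome, the origin recognition complex, Cdc6 and Cdt1 load the MCM helicase (Mcm2 to Mcm7) on origins, which is called licensing. At the G1/S transition, cyclin D and cyclin E with their kinases relieve the repression of E2F factors by RB proteins, and E2F factors are known to activate many genes of licensing, nucleotide synthesis and the replication machinery. Firing then adds Mcm10, Cdc45 and the GINS complex to the helicase, and polymerases, the sliding clamp Pcna with its loader RFC, and the RPA, Fen1 and Lig1 proteins carry out synthesis. In growing marrow stromal cultures these genes are known as markers of cells in or near S phase.

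The promoters of the MCM genes are shown because these subunits form 1 complex and their genes are known targets of E2F factors. A promoter here runs from 250 bases before to 50 bases after the annotated start of the gene, on the gene's strand, 5′ to 3′, from RefSeq on the GRCr8 assembly. The table held a promoter for 33 of the 39 genes. Capitals mark 8-letter E2F motifs, searched on both strands as TTTCCCGC, TTTCGCGC, TTTGCCGC or TTTGGCGC, which can overlap each other. The promoter of Pcna is added as a replication gene without these letters in this window.
Mcm2, chr4:122918045-122918344, minus strand: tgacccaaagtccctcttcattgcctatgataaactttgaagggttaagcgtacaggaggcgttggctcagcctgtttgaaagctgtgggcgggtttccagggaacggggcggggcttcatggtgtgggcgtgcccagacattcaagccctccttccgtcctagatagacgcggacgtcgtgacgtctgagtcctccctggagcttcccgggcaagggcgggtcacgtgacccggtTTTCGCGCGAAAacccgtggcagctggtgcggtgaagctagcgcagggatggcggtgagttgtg
Mcm3, chr9:30733697-30733996, minus strand: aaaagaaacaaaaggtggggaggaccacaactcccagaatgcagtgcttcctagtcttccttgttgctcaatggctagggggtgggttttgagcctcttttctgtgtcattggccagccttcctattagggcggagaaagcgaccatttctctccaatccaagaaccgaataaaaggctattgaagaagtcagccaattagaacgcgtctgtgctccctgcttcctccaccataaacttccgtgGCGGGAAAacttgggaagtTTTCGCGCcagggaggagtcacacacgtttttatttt
Mcm5, chr19:13488563-13488862, plus strand: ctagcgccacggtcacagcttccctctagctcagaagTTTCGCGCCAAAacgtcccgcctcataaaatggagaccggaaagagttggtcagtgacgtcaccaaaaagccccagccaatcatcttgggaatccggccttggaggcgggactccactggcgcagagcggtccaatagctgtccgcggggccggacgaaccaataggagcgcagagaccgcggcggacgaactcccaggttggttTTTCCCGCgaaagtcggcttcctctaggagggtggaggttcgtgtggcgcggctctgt
Mcm6, chr13:42404303-42404602, minus strand: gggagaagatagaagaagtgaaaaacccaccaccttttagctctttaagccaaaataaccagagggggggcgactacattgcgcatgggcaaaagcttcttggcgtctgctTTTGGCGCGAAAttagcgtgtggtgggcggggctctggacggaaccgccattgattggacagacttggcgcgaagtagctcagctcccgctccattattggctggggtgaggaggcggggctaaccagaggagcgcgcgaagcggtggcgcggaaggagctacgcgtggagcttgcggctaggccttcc
Mcm7, chr12:22163129-22163428, minus strand: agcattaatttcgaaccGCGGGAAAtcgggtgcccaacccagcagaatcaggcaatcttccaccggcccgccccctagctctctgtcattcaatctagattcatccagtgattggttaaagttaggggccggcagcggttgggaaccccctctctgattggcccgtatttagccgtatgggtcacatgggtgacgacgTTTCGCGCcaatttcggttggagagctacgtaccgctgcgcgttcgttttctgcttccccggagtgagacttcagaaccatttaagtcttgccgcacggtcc
Pcna, chr3:139955771-139956070, minus strand: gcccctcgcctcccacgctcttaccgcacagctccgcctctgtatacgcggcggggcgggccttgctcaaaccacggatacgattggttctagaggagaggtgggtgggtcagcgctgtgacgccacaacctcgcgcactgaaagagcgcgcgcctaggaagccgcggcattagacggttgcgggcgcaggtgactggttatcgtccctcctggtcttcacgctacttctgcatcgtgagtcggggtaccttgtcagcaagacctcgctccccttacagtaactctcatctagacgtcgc
Each of these 5 MCM promoters held E2F letters. In Mcm2, 2 overlapping matches on opposite strands lay between bases -14 and -3, counting the start as 0. In Mcm5 the match nearest the start ended at base -1, and a pair of overlapping matches lay between -213 and -202. Mcm3 had matches at -6 to 1 and 13 to 20, Mcm7 at -233 to -226 and -52 to -45, and Mcm6 an overlapping pair between -139 and -128. Mcm4 was not in the promoter table.

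Of the 33 genes with a promoter, 15 held E2F letters (45.5%), against 456 of the 11437 tested genes with a promoter (3.99%) and 2.37% of the 27457 genes in the table. In 36 other replication genes it was 14 of 28 with a promoter, and in 40 genes of mitosis and G2/M it was 1 of 34 (2.94%). The 5 letters CCAAT, the core of the NF-Y motif, stood in 21 of the 33 replication promoters (63.6%) and in 26 of the 34 mitosis promoters (76.5%), against 39.2% of tested genes. A match describes letters in a window and not binding. The 13 tested genes with E2F letters had a median difference of 0.47 between surfaces, and the 18 tested genes with a promoter but without them had 0.56.

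**Figure D1:**
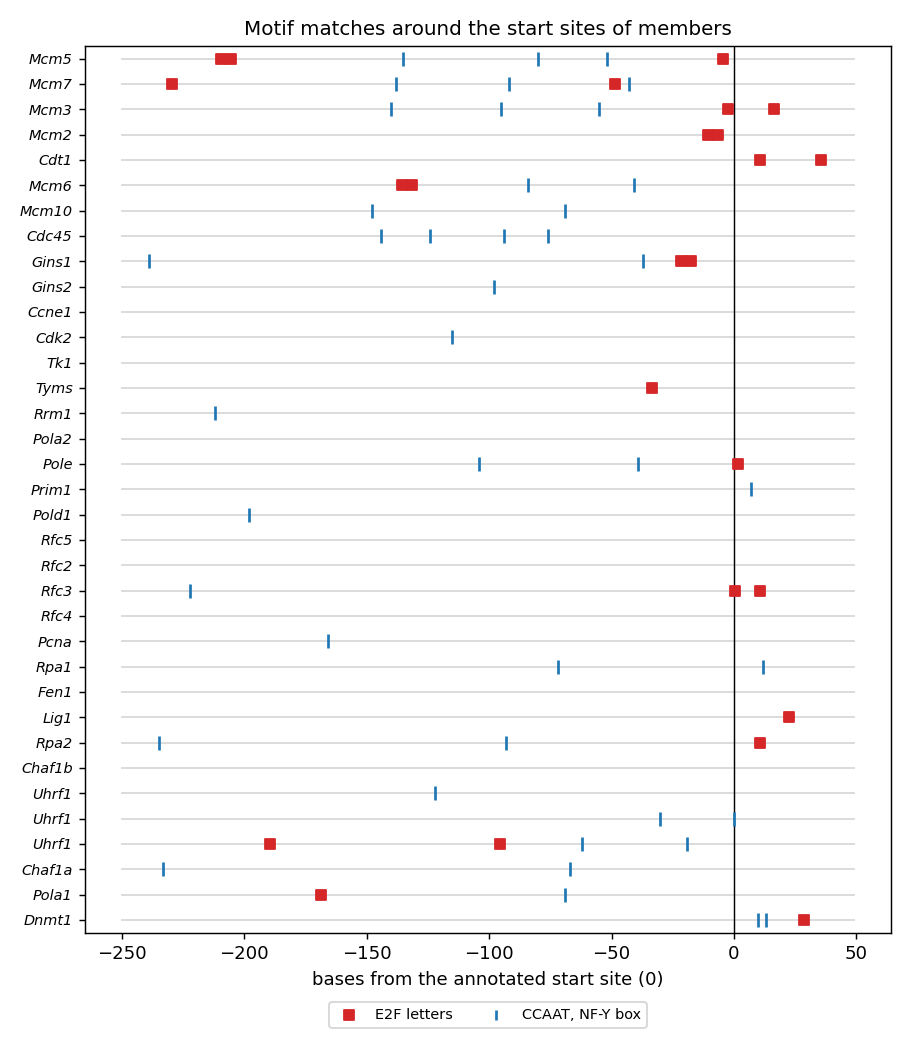
Positions of E2F letters (red squares) and CCAAT (blue ticks) in the promoters of the 33 genes in the table, in bases from the annotated start at 0, by role from licensing at the top, with 1 line per promoter record and 3 for Uhrf1. E2F letters stood in 15 of the 33 genes.

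Each of the 37 tested genes had a higher mean on Ta than on Ti (36 with quantile scaling, 35 with median scaling and 32 without scaling between arrays), but 0 passed the test. The median difference was 0.53, a 1.45-fold ratio, against 0.03 (1.02-fold) over all genes tested, of which 53.8% were positive. The differences ran from 0.0071 for Ccnd1 to 1.08 for Cdc6. At an adjusted p under 0.05 (limma, Benjamini-Hochberg over all genes) 4.12% of all genes were called, with 2.65% higher (520 genes) and 1.47% lower (288 genes) on Ta. That split was 415 and 361 genes with median scaling and 97 and 104 without scaling, where the median of all genes was -0.15. The smallest adjusted p among the 37 was 0.0523, shared by Mcm10, Rfc5 and E2f1. At an unadjusted p under 0.05, 27 of the 37 were higher on Ta, where 16.7% of all genes were. In 27 of the 37 every Ta array lay above every Ti array, which held for 19.5% of all genes. This count was 19 of the 37 with median scaling, against 15.7% of all genes, and 15 without scaling, against 8.17%. In 0 of the 37 did every Ta array lie below every Ti array, which held for 16.3% of all genes. In RNA of a whole culture, more cells in S phase and more of these transcripts per cell cannot be told apart.

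**Figure D2:**
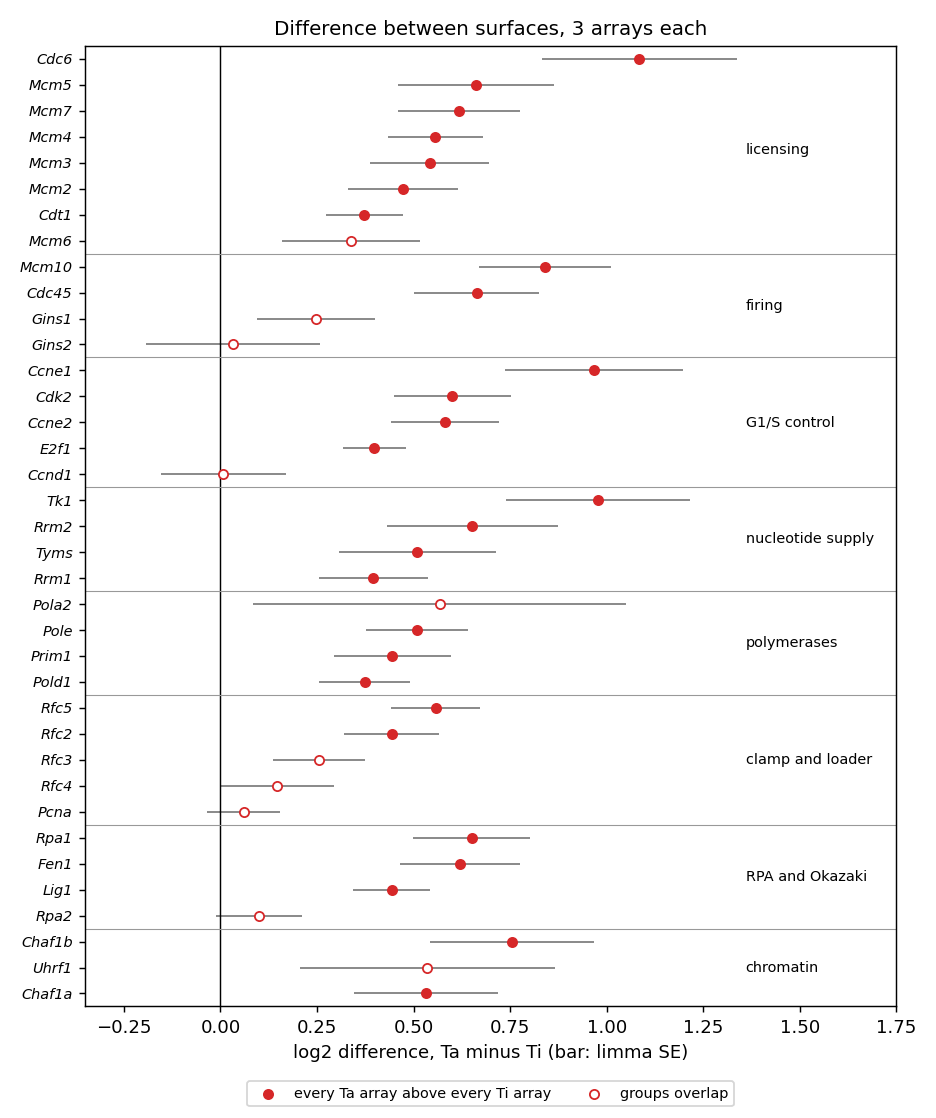
Log2 difference, Ta minus Ti, of the 37 tested genes by role, with the SE of limma as bars (3 arrays per surface). Filled points mark the 27 genes in which every Ta array lay above every Ti array, and the points run between 0.0071 for Ccnd1 and 1.08 for Cdc6 (5 of the 37 turned negative without scaling between arrays).

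The 8 licensing genes had positive differences between 0.34 and 1.08, positive under every scaling tried. In 7 of them every Ta array lay above every Ti array on the scaled signal, against 19.5% of all genes. Statements below on overlap, by role or by gene, are also of the scaled signal. Without scaling the count over the whole list was 15 of 37, against 8.17% of all genes, and was not split by role. Cdc6, the loader of the MCM helicase, read 7.80, 8.36 and 8.35 on Ta 1, 2 and 3, against 6.93, 7.55 and 6.78 on Ti 1, 2 and 3. All Ta arrays lay above all Ti arrays, with Ti 2 the nearest of Ti to Ta 1. Its difference of 1.08 ± 0.25 (SE, adjusted p = 0.0639) was the largest of the list with the brightest probe of each gene, a ratio of 2.12. Cdt1, the partner of Cdc6 in loading, read 4.78, 5.05 and 5.01 on Ta, against 4.63, 4.51 and 4.59 on Ti. That gave 0.37 ± 0.10 (adjusted p = 0.0761) without overlap.

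Of the helicase subunits, Mcm4 read 11.45, 11.79 and 11.70 on Ta, against 10.99, 11.24 and 11.05 on Ti, a difference of 0.56 ± 0.12 (adjusted p = 0.0592). Mcm7 read 11.17, 11.48 and 11.40 on Ta, against 10.59, 11.03 and 10.57 on Ti, a difference of 0.62 ± 0.16 (adjusted p = 0.0718). In both the lowest Ta array, Ta 1, stood above the highest Ti array, Ti 2. Mcm5 read 11.28, 11.86 and 11.87 on Ta, against 10.87, 11.27 and 10.88 on Ti, so that Ta 1 and Ti 2 were nearly level. Its difference was 0.66 ± 0.20 (adjusted p = 0.0944). Mcm2 and Mcm3 differed by 0.47 ± 0.14 and 0.54 ± 0.15 (adjusted p = 0.0926 and 0.0836), again with no overlap. A second, dimmer probe of Mcm3 gave 1.24, so the size of its difference is uncertain. Second probes gave 0.31 for Mcm2, 0.54 for Mcm5 and 0.55 for Mcm4, with 0.73 for another Mcm4 probe. Mcm6 was the only subunit with overlapping surfaces on the scaled signal: it read 7.4997, 8.11 and 8.02 on Ta, against 7.67, 7.41 and 7.54 on Ti. Here Ta 1 lay inside the range of Ti, and the difference was 0.34 ± 0.18 (adjusted p = 0.256).

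Among the 4 firing genes, 2 did not overlap on the scaled signal, against 19.5% of all genes with every Ta array above every Ti array. Mcm10, which joins the helicase as it is activated, read 6.83, 7.28 and 7.21 on Ta, against 6.12, 6.54 and 6.15 on Ti. Every Ta array was above every Ti array, with a difference of 0.84 ± 0.17 (adjusted p = 0.0523). Cdc45, the helicase cofactor that is limiting for firing in mammalian cells, read 11.01, 11.39 and 11.37 on Ta, against 10.46, 10.86 and 10.46 on Ti. That was 0.66 ± 0.16 (adjusted p = 0.0672). The GINS subunits differed less: Gins1 by 0.25 ± 0.15 and Gins2 by 0.03 ± 0.22 (adjusted p = 0.324 and 0.936), with the surfaces overlapping in both. A second, dimmer probe of Gins2 gave 0.62, so the difference of that gene is uncertain.

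Of the 5 regulators of the G1/S transition, 4 were without overlap on the scaled signal, against 19.5% of all genes, and Ccnd1 overlapped. Ccne1, cyclin E1, which activates Cdk2 at the start of S phase, read 11.51, 12.01 and 12.24 on Ta, against 10.76, 11.29 and 10.81 on Ti. Its difference was 0.97 ± 0.23 (adjusted p = 0.0656), a ratio of 1.96. Ccne2, the second E cyclin, and the kinase gene Cdk2 differed by 0.58 ± 0.14 and 0.60 ± 0.15 (adjusted p = 0.0656 and 0.0698). E2f1, an activating E2F factor, had the smallest SE of the list and read 9.47, 9.61 and 9.54 on Ta, against 9.21, 9.09 and 9.12 on Ti. Unlike most of the list, its highest Ti array was Ti 1, and its difference was 0.40 ± 0.08 (adjusted p = 0.0523). Ccnd1, cyclin D1, which links growth signals to RB in G1, read 12.33, 12.70 and 12.87 on Ta, against 12.74, 12.45 and 12.69 on Ti. These overlapped widely, with Ta 1 the lowest of all arrays, and the difference was 0.0071 ± 0.16 (adjusted p = 0.98). A second, dimmer probe of Ccnd1 read 11.74, 12.09 and 12.21 on Ta, against 11.74, 11.68 and 11.85 on Ti. There Ta 2 and Ta 3 lay above every Ti array and the difference was 0.26, so this gene is uncertain too.

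All 4 genes of nucleotide supply were without overlap on the scaled signal, against 19.5% of all genes. The margins were small for Rrm2, Tyms and Rrm1. Tk1, thymidine kinase of the salvage pathway, read 9.86, 10.56 and 10.61 on Ta, against 9.22, 9.66 and 9.21 on Ti, a difference of 0.98 ± 0.24 (adjusted p = 0.067). A second probe named Tk1 gave 1.01. The array annotation places that probe on chromosome 3 and the brighter one nowhere, while RefSeq places Tk1 on chromosome 10. What these probes measure is therefore uncertain. Rrm2, the small subunit of ribonucleotide reductase, read 13.61, 14.35 and 14.39 on Ta, against 13.35, 13.59 and 13.47 on Ti. Ta 1 stood only just above Ti 2, and the difference was 0.65 ± 0.22 (adjusted p = 0.114). Tyms, thymidylate synthase, showed the same shape at 7.87, 8.54 and 8.61 on Ta, against 7.84, 7.83 and 7.82 on Ti. Ta 1 was almost level with the 3 tightly grouped Ti arrays, and the difference was 0.51 ± 0.20 (adjusted p = 0.156). Rrm1, the large reductase subunit, differed by 0.40 ± 0.14 (adjusted p = 0.127), with Ta 1 at 12.30 and Ti 2 at 12.28. Second probes of Rrm2 and Rrm1 both gave 0.81.

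The 4 tested polymerase genes had similar differences, but with unequal precision. Pole, the catalytic subunit of the leading-strand polymerase epsilon, read 5.53, 5.87 and 5.79 on Ta, against 5.30, 5.34 and 5.04 on Ti. Its difference was 0.51 ± 0.13 (adjusted p = 0.0727), while a second, dimmer probe gave -0.16, so this gene is uncertain. Pold1, of the lagging-strand polymerase delta, and Prim1, the primase that makes RNA primers, differed by 0.37 ± 0.12 and 0.44 ± 0.15 (adjusted p = 0.0998 and 0.115) without overlap. For Prim1 the margin was small, with Ta 1 at 10.975 and Ti 2 at 10.9727. Pola2, the second subunit of polymerase alpha, was well above background on only 2 Ta arrays and 1 Ti array. It read 2.996, 4.83 and 4.55 on Ta, against 3.89, 3.30 and 3.48 on Ti, with Ta 1 the lowest of all, and its difference was 0.57 ± 0.48 (adjusted p = 0.469).

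The sliding clamp and its loader had unequal differences, and without scaling Pcna and Rfc4 were negative. Pcna, the clamp that holds polymerases on DNA, read 11.93, 12.13 and 11.96 on Ta, against 11.88, 11.91 and 12.05 on Ti. The surfaces overlapped, and the difference of 0.06 ± 0.09 on the scaled signal (adjusted p = 0.707) was among the smallest of the list. Among the loader subunits, Rfc5 read 8.66, 8.994 and 8.995 on Ta, against 8.30, 8.38 and 8.30 on Ti, a difference of 0.56 ± 0.11 (adjusted p = 0.0523). Rfc2 differed by 0.44 ± 0.12 (adjusted p = 0.0809), and both it and Rfc5 were without overlap. Rfc3 and Rfc4 overlapped and differed by 0.26 ± 0.12 and 0.15 ± 0.15 (adjusted p = 0.208 and 0.535). Differences between members of the list were not tested.

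Of the genes that protect single strands and join Okazaki fragments, 3 of 4 were without overlap on the scaled signal, against 19.5% of all genes. Fen1, the nuclease that trims primer flaps, read 12.27, 12.73 and 12.78 on Ta, against 11.93, 12.08 and 11.90 on Ti, a difference of 0.62 ± 0.16 (adjusted p = 0.0696). Lig1, the ligase that seals the fragments, read 11.98, 12.24 and 12.25 on Ta, against 11.72, 11.75 and 11.67 on Ti. Its Ti arrays were close together, and the difference was 0.44 ± 0.10 (adjusted p = 0.0614). Rpa1, the large subunit of the single-strand binding protein RPA, read 7.80, 8.14 and 8.35 on Ta, against 7.53, 7.43 and 7.37 on Ti. This was 0.65 ± 0.15 (adjusted p = 0.0641), whereas Rpa2, the middle subunit, overlapped and differed by 0.10 ± 0.11 (adjusted p = 0.578), and by -0.0756 without scaling. Second probes gave 0.36 for Lig1 and 0.51 for Rpa1.

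The genes that rebuild chromatin behind the fork had higher means on Ta under every scaling tried. Chaf1b, a subunit of the histone chaperone CAF-1, read 10.42, 10.96 and 10.98 on Ta, against 9.88, 10.37 and 9.85 on Ti. Ta 1 was just above Ti 2, and the difference was 0.75 ± 0.21 (adjusted p = 0.083), with 1.0001 for a second probe. Chaf1a, its partner, read 7.31, 7.83 and 8.03 on Ta, against 7.196, 7.186 and 7.191 on Ti, a difference of 0.53 ± 0.19 (adjusted p = 0.121). Uhrf1, which recruits Dnmt1 to newly copied DNA, reached the well-above-background mark on 2 of its 3 Ti arrays and overlapped, at 0.54 ± 0.33 (adjusted p = 0.323).

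**Figure D3:**
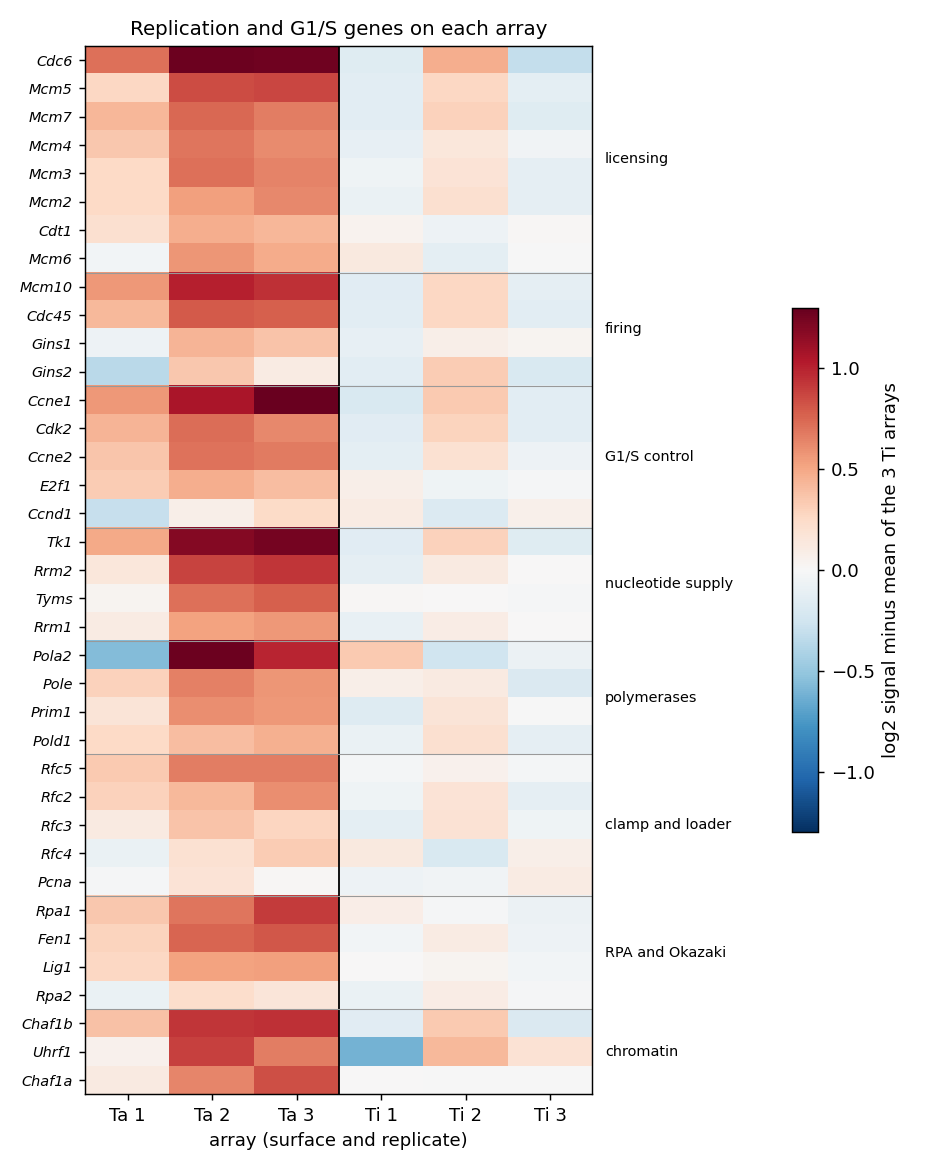
Log2 signal of the 37 tested genes on each array, shown as the difference from the mean of the 3 Ti arrays, with genes in rows by role and Ta arrays left of Ti arrays. Ta 1 is the lowest Ta array in 37 of 37 genes, and Ti 2 is the highest Ti array in 27.

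The genes also had an order of the arrays in common. Ta 1 was the lowest Ta array in 37 of 37 genes, which held for 42.1% of all genes tested. Ti 2 was the highest Ti array in 27 of 37, against 36.9% of all genes. The median difference from the Ti mean was 0.26 on Ta 1, 0.67 on Ta 2 and 0.63 on Ta 3, against -0.09 on Ti 1, 0.14 on Ti 2 and -0.07 on Ti 3. Ta 1 was above every Ti array in 27 of 37 genes, against 30.1% of all genes. Ta 2 was so in 36, against 35%, and Ta 3 in 35, against 40%. Ti 2 was also the only array that the scanner's quality report set aside for evaluation. The arrays of Ta 1, Ta 2, Ta 3 and Ti 1 lay in row 1 of the slide, and those of Ti 2 and Ti 3 in row 2.

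The number of calls depended on these arrays. Without Ta 1, 27 of 37 genes were called higher on Ta and 0 lower. Of all 19601 genes, 1683 were then called higher and 1535 lower, 16.4% for both directions. Without Ti 2, 8 of 37 were called against 7.96% of all genes. Without Ta 2, Ta 3, Ti 1 or Ti 3 in turn, 0 of 37 and 0 of 19601 genes were called by limma, with between 3815 and 4472 genes at an unadjusted p under 0.05. The median of the 37 ran between 0.40 without Ta 3 and 0.67 without Ta 1.

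Other ways of processing the arrays gave other counts around the same differences. With normexp background correction 17 of 37 were called against 13.3% of all genes, and with a trended and robust variance 15 of 37 against 10.7%. When only probes well above background on all 6 arrays entered, 5 of 35 were called against 6.6%, namely Mcm10, E2f1, Lig1, Mcm4 and Rfc5. Weights estimated for each array gave 34 of 37, but also 52% of all genes, with a weight of 7.35 on Ta 2 and between 0.318 and 2.76 on the other arrays. Every such call was higher on Ta. Mcm10 was called in 6 of 18 alternatives, and Ccnd1, Pcna and Rfc4 in 0.

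**Figure D4:**
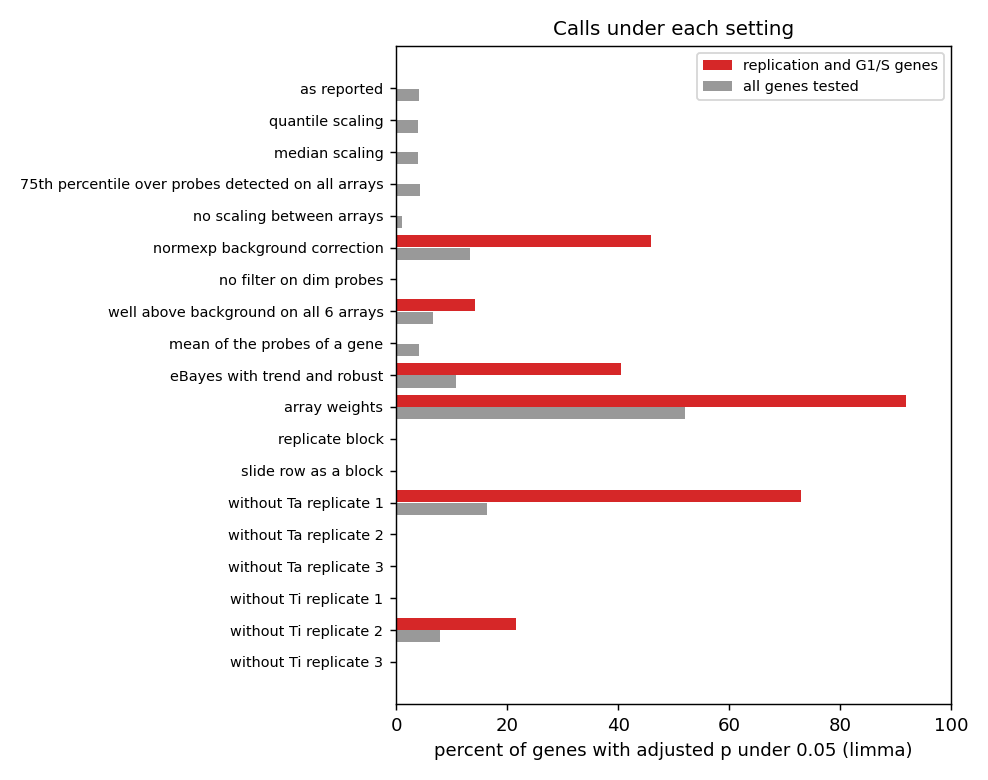
Percent of genes with an adjusted p under 0.05 (limma), for the replication and G1/S genes in red and all genes tested in grey, under each way of processing. As reported 0 of 37 were called against 4.12% of all genes, and without Ta replicate 1 it was 27 of 37 against 16.4%.

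The other genes of the pathway were taken from lists that share no gene with the 39. Of 35 tested genes among 36 further replication genes, 31 were positive (25 without scaling between arrays), with a median of 0.33. In the test 2 of the 35 rose while 0 fell, where 2.65% of all genes rose and 1.47% fell. Clspn, a fork protein needed to activate the checkpoint kinase Chk1, read 5.41, 5.92 and 5.86 on Ta, against 3.75, 4.30 and 3.996 on Ti, and rose by 1.71 ± 0.19 (adjusted p = 0.0397). A second probe, well above background on 4 arrays, gave 0.87. Orc6, a subunit of the origin recognition complex, read 7.08, 7.26 and 7.14 on Ta, against 6.63, 6.57 and 6.41 on Ti, and rose by 0.63 ± 0.10 (adjusted p = 0.042). The call of Orc6 was also lost without scaling (adjusted p = 0.0965). Both calls were lost without Ta 2, Ta 3, Ti 1 or Ti 3, where the adjusted p of Clspn was 0.159, 0.125, 0.123 and 0.151 and that of Orc6 was 0.165, 0.13, 0.123 and 0.16.

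Of 17 other E2F, RB and CDK genes, 11 were positive (6 without scaling, with a median of -0.11), with a median of 0.07. The test was passed by 1 of the 17, where 4.12% of all genes passed. E2f2, an activating E2F factor like E2f1, read 7.63, 7.33 and 7.41 on Ta, against 8.43, 8.05 and 8.39 on Ti, and differed by -0.83 ± 0.14 (adjusted p = 0.0439), the 1 gene that fell. Its adjusted p was 0.0566 without scaling. Without Ta 2, Ta 3, Ti 1 or Ti 3 its adjusted p was 0.165, 0.133, 0.132 and 0.165. Rb1, the retinoblastoma gene, differed by -0.71 ± 0.21 (adjusted p = 0.0945) with every Ta array below every Ti array. Tfdp2, a dimer partner of E2F factors, differed by 0.35 ± 0.08 (adjusted p = 0.0564), but a second probe gave -0.14.

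Of the 7 CDK inhibitor genes 0 were called, against 4.12% of all genes, 3 were positive and the median was -0.04. Cdkn1a, which encodes p21, read 13.34, 13.71 and 13.79 on Ta, against 13.11, 13.07 and 12.97 on Ti, a difference of 0.56 ± 0.13 (adjusted p = 0.0656). Cdkn2b and Cdkn2d, inhibitors of Cdk4 and Cdk6, differed by -0.36 ± 0.14 and -0.21 ± 0.09 (adjusted p = 0.151 and 0.173).

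The 39 tested genes of mitosis and G2/M had nearly the same median as the replication genes, 0.53, and 38 were positive (34 without scaling). Called higher on Ta was 1 of the 39, where 2.65% of all genes were. This gene, Cdca8, a subunit of the chromosomal passenger complex, differed by 0.98 ± 0.16 (adjusted p = 0.044, and 0.0523 without scaling). It was 0.165, 0.133, 0.127 and 0.165 without Ta 2, Ta 3, Ti 1 or Ti 3. The spindle checkpoint kinase gene Ttk and the kinesin gene Kif20a differed by 0.76 ± 0.20 and 0.90 ± 0.24 (adjusted p = 0.0723 and 0.0774). On Ta 1 the mitosis genes lay closer to Ti than the replication genes did, with medians of 0.08 on Ta 1, 0.74 on Ta 2 and 0.76 on Ta 3 from the Ti mean. Ta 1 was above every Ti array in 16 of 39 mitosis genes, against 27 of 37 replication genes and 30.1% of all genes. This difference between the lists was not tested. Without Ta 1, 31 of the 39 mitosis genes and 16 of the 35 further replication genes were called, all higher on Ta. Of all 19601 genes, 1683 were then called higher.

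**Figure D5:**
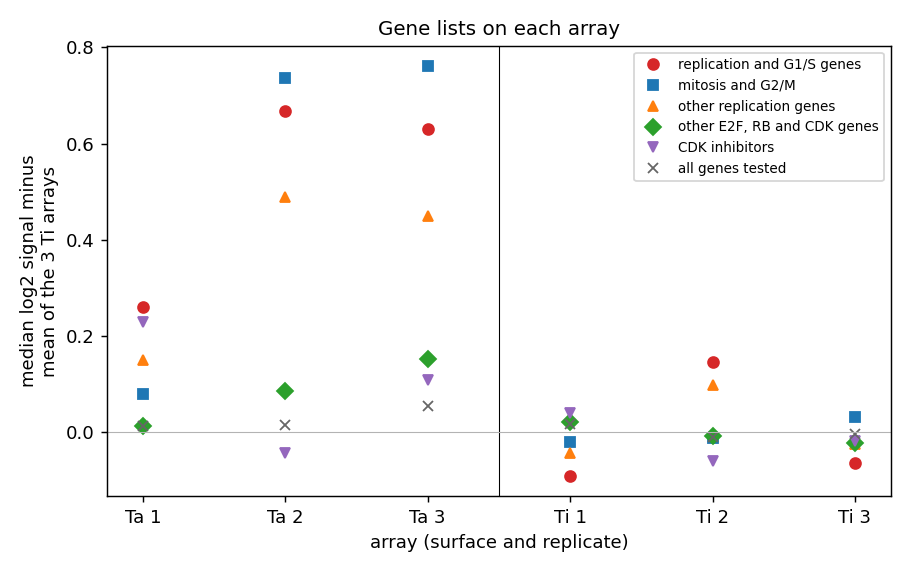
Median log2 signal of each gene list on each array, as the difference from the mean of the 3 Ti arrays, with Ta arrays left of Ti arrays. The replication and G1/S genes lie at 0.26 on Ta 1 and at 0.67 and 0.63 on Ta 2 and Ta 3, and the mitosis genes at 0.08 on Ta 1 and at 0.74 and 0.76 on Ta 2 and Ta 3.

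Markers of several cell types also differed between the surfaces. Their calls stand beside 2.65% of all genes called higher and 1.47% called lower on Ta. All 10 stromal markers were tested and 1, Thy1, was called higher on Ta (0 calls without scaling, and 1 call in each direction with scaling over detected probes), with a summed linear signal of 153892 to 176815 on Ta and 146794 to 163504 on Ti. Of 14 macrophage markers, none at background, 0 were called by limma and 8 had an unadjusted p under 0.05, 7 of them lower on Ta and Cd14 higher at 0.34 ± 0.14 (adjusted p = 0.155). C1qa, C1qb and C1qc, the chains of complement C1q, differed by -2.79, -2.83 and -3.08 (adjusted p = 0.0787, 0.0695 and 0.07), with every Ta array below every Ti array. The median of the 14 was -0.79, and their summed signal was 114847, 87839 and 63049 on Ta 1, 2 and 3 and 113100 to 130713 on Ti, so that here too Ta 1 lay nearest to Ti. Of 8 mast cell markers 6 were tested and Cma1, Cpa3, Mcpt8 and Kit fell (3 calls without scaling), with a summed signal of 800 to 889 on Ta and 1301 to 2144 on Ti, and Ms4a2 was never well above background. On Ta, Cma1 reached the well-above-background mark on 0 arrays and Cpa3 on 1, so both passed the filter on dim probes through Ti. Hdc differed by 0.73 ± 0.16 (adjusted p = 0.0564), with every Ta array above every Ti array, and Fcer1a by -0.25 ± 0.38 (adjusted p = 0.685).

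Of 8 neutrophil markers 3 were tested and S100a8 and Camp rose (0 calls without scaling), with a summed signal of 262 to 617 on Ta and 82 to 135 on Ti, while S100a9, Elane, Ngp and Ltf were never well above background. Of 8 erythroid markers 3 were tested and 0 called, with Alas2, Klf1 and Hbb never well above background and a summed signal of 3361 to 4074 on Ta and 2774 to 3814 on Ti. Of 6 endothelial markers 5 were tested and 0 called, with Emcn never well above background and sums of 1716 to 2027 on Ta and 1710 to 1989 on Ti. The median difference of the 5 was -0.39, and only Vwf was positive, at 0.06 (0 were positive without scaling). Vwf had the brightest probe of the 5 and weighed most in these sums. Of the lymphoid markers Cd2 was tested and called higher on Ta (limma, adjusted p = 0.042, with 0 calls without scaling). Its probe reached the well-above-background mark on 3 Ta arrays and 0 of 3 Ti arrays, so it passed the filter on dim probes through Ta. The part of these cells in the differences of the replication genes was not tested. Like every call of the comparison, these marker calls were lost without Ta 2, Ta 3, Ti 1 or Ti 3, where 0 genes were called.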

How the data were processed

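RNA of 3 Ta and 3 Ti cultures was labelled with Cy3 and hybridised to 6 one-colour Agilent arrays on 1 slide. The files deposited hold linear spot intensities, made by Agilent Feature Extraction 12.0.3.1 with background subtraction and detrending but no scaling from array to array, per the file headers. Feature Extraction 12.0 and limma are the tools listed in the submitters' processing notes. For Ta 2 and Ti 3 the files keep 3 significant digits, and 47 probes are named otherwise there, 0 of them probes of the 39 genes.

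The log2 processed signal was reduced by each array's 75th percentile over 58717 non-control spots, and the mean percentile was added back. Outlier spots were dropped, and the spots of a probe were averaged. Probes well above background on at least 3 of 6 arrays were kept (25764 of 45598), and the brightest probe stood for a gene. Gene names came through RefSeq (GRCr8) for 30650 probes and otherwise from the file of Ta replicate 1. The share of spots well above background ran between 62.7% and 65.9% per array, and 0 spots of the 37 genes were saturated. The number of arrays limits the precision.

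The comparison of surfaces used lmFit and eBayes of limma 3.58.1, two-sided, under R 4.3.3, with Benjamini-Hochberg adjustment over 19601 genes and a threshold of 0.05, and the script was tested on simulated data. SE is limma's moderated standard error. Linear fold values are powers of 2 with the log2 differences of the scaled signal as exponents. The 39 genes and the other lists were chosen with earlier results of these data known. All 39 may be named. The other lymphoid markers than Cd2 are not reported here. In every other pathway list up to 4 called genes with the largest difference are named, and up to 3 with the smallest p where fewer than 2 were called. Cell type markers are given as counts and summed signals, and those named singly were chosen after their values were seen. Promoter letters were searched in RefSeq sequences, and no genome was used.

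Alternatives were quantile, median, detected-probe and no scaling between arrays, normexp correction (offset 50), dropping or tightening the filter on dim probes, the mean of a gene's probes, trended and robust variances, array weights, the replicate number or the slide row as a block, and leaving out each array in turn.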

Additional observations from a re-analysis of the deposited data

How the results depend on the processing

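The median difference of the 37 genes stayed between 0.36 and 0.70 under the 18 alternatives tried, within the spread between replicates. The count of genes in which every Ta array lay above every Ti array was 27, against 19.5% of all genes. It was 15 without scaling between arrays, against 8.17% of all genes, where the median of all genes moved to -0.15. The count of called genes of the list was 0, and 17 with normexp correction, 5 with probes well above background on all 6 arrays, 15 with trended and robust variances and 34 with array weights. It lay between 0 and 27 when an array was left out. Over all genes 808 were called, and 201 without scaling, 2602 with normexp, 0 without a filter on dim probes (limma, 5814 at an unadjusted p under 0.05), 2103 with trended and robust variances, 10184 with array weights, 0 with slide row as a block (3837 at an unadjusted p under 0.05) and between 0 and 3218 when an array was left out. The causes were not tested.

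The replicate numbers were not shown to pair the cultures, since same-numbered arrays, each taken relative to its surface's mean, correlated across genes at 0.06, 0.13 and -0.18. With the replicate number as a block 8 genes were called and 0 of the 37. The calls of Clspn, Orc6, E2f2 and Cdca8 were lost with this block (adjusted p between 0.0517 and 0.0854), without a filter on dim probes (0.105 to 0.121) and with slide row as a block (0.171 to 0.2).

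Signs turned for 5 genes of the list that were not called as reported, of which Gins2 and Rpa2 were called higher with array weights (0.44 and 0.23). Ccnd1 was at -0.0273 with median scaling, -0.17 without scaling, -0.0057 with normexp, -0.10 with slide row as a block, and ran between -0.11 and 0.16 as each array was left out, negative without Ta 2, Ta 3 or Ti 2. Gins2 was at -0.0175 with quantile scaling, -0.0018 with median scaling, -0.14 without scaling, and ran between -0.13 and 0.23 as each array was left out, negative without Ta 2, Ta 3, Ti 1 or Ti 3. Without scaling Pcna was at -0.12, Rfc4 at -0.0285 and Rpa2 at -0.0756. As each array was left out, Pcna ran between -2e-04, without Ta 2, and 0.11. Of the other values of named genes, 686 kept their direction and side of the threshold, 127 passed it and 31 no longer did. Dim probes limit Pola2, Uhrf1, Pola1 and Dnmt1.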
